A study of Mus musculus with 3 samples.

Results

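Genes of cholesterol and fatty acid synthesis were followed in 3 RNA-Seq libraries of differentiating C2C12 cells. The genes were chosen by symbol: 18 enzymes of sterol synthesis, 8 of fatty acid synthesis and desaturation, and 6 genes of the SREBP system that controls both pathways or of sterol transport. All 32 symbols were found among the 22068 genes of the files, and 31 had a mean of at least 1 RPKM (reads scaled by gene length and library size) over the 3 libraries. The remaining gene, Hmgcs1, was listed at 0 in all 3 libraries and has no ratio. It is not found under that symbol in the annotation used here for gene lengths, and a listed 0 can be a failed estimate, so it is not read as an absence of the transcript.

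C2C12 is a mouse myoblast line. Stable lines were made with a lentivirus carrying Linc-RAM (overexpression), a short hairpin RNA against Linc-RAM (knockdown) or no insert (control) and selected with blasticidin. Cells grown in DMEM with 10% FBS were moved near confluence to DMEM with 2% HS, and polyadenylated RNA was taken after 12 h in this differentiation medium. There was 1 stable line and 1 library for each condition, so the ratios have no replicate check, and the sources used here do not say whether the lines were pools or clones. Linc-RAM itself, under the symbol 2310015B20Rik, had 1 read with overexpression (1.07 RPKM) and was listed at 0 in the other libraries, which is too little to check the labels. The read totals recovered from the RPKM values were 5130481, 2105513 and 1878146 for control, overexpression and knockdown. The defining genes of myoblasts were present: all 9 listed markers, among them Myod1, Myf5, Des and Cdh15, were measured, and their summed level was 434 RPKM in control cells, 678 with overexpression and 287 with knockdown. Des, the muscle intermediate filament gene, made up most of each sum, at 291, 386 and 145 RPKM. Of 10 adipocyte markers, Adipoq, Plin1, Cidec, Lep, Retn and Cfd were listed at 0 in all 3 libraries, and the whole list summed to 8.22, 6.16 and 5.52 RPKM. Most of the adipocyte sum in control cells was Cebpa, a transcription factor gene, at 6.57, 2.34 and 2.82 RPKM (89, 13 and 14 reads), or 0.356 (95% counting interval 0.182 to 0.640) and 0.430 (0.226 to 0.759) of the control. Fabp4, Pparg and Lpl were at no more than 1.64 RPKM in any library. In bulk RNA, fewer cells of a type and less RNA per cell cannot be told apart.

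Animal cells build sterols from acetyl-CoA through mevalonate, the isoprenoid farnesyl diphosphate, squalene and lanosterol, and they build fatty acids from the same precursor through malonyl-CoA. The SREBP transcription factors, encoded by Srebf1 and Srebf2, switch on both pathways. Scap escorts SREBP out of the endoplasmic reticulum when sterols are low, and Insig proteins hold the complex back when sterols are high. Proliferating myoblasts need these lipids for new membrane, and myotubes need them for the enlarged and fused surface.

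The fatty acid branch held the most abundant transcripts. Scd2 and Scd1, the desaturases that make monounsaturated fatty acids, ranked first and second of the members in each library. In the control, Scd2 was at 369 RPKM and Scd1 at 94.7 RPKM, followed by the cytosolic thiolase Acat2 at 67.4, the isopentenyl diphosphate isomerase Idi1 at 59.0 and Srebf2 at 57.0. The lowest measured members in the control were Hsd17b7, a reductase of sterol intermediates, at 5.54 RPKM, Scap at 6.59, acetyl-CoA carboxylase Acaca at 7.12 and the sterol reductase Tm7sf2 at 8.17. All 31 measured members had a mean of at least 5 RPKM. They had 11 to 5727 recovered reads in a library, with a median of 341 reads in the control, against 161 over all genes with a mean of at least 5 RPKM.

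**Figure D1:**
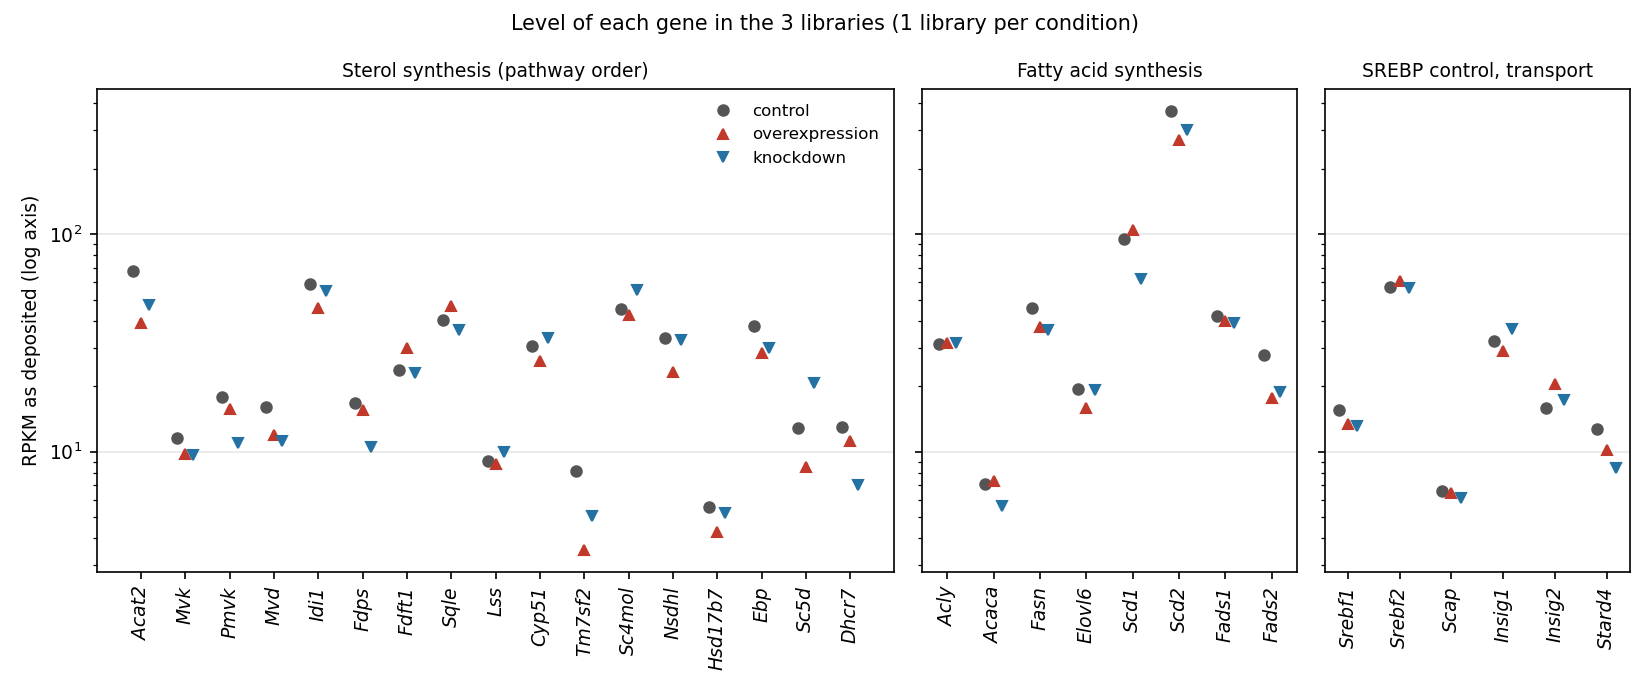
RPKM as deposited (log axis) of the 31 measured members in the control (grey circles), overexpression (red triangles pointing up) and knockdown (blue triangles pointing down) libraries, with 1 library per condition and no error bars. Scd2 lies highest in each library, at 369, 272 and 301 RPKM, and the 3 points of most genes lie close to each other.

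With Linc-RAM overexpression, most sterol synthesis genes stood below the control by a small amount. Of the 17 measured, 15 were below the control and 2 above, and the median log2 ratio was -0.24, against 0.0048 over all 10165 genes compared, of which 49.6% were below and 50.4% above. Only Tm7sf2 reached the 2-fold criterion taken from the methods of the study, and no member of any group was 2-fold higher, where 3.47% of all genes were lower and 3.64% higher by that criterion. At 1.5-fold, 4 members were lower (Tm7sf2, Acat2, Sc5d and Fads2) and none was higher, against 9.52% and 10.6% of all genes. The 95% interval of a ratio (exact, Clopper-Pearson, from recovered reads and covering counting error only) lay below 1 for 11 of the 31 members and above 1 for 3. Over all genes with a mean of at least 5 RPKM these shares were 11.1% and 11.6%. Intervals are narrower where reads are more numerous, and the members had more reads than the median gene of that level. The 3 members above were Fdft1, Scd1 and Insig2, with lower bounds of 1.04, 1.03 and 1.01. Scaling to the upper quartile, a log2 shift of 0.096, would bring each of these bounds below 1.

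Tm7sf2, which reduces a double bond left by the demethylation of lanosterol, was at 8.17 RPKM in control cells, 3.53 with overexpression and 5.04 with knockdown. These were 62, 11 and 14 reads, and the ratios to the control were 0.432 (95% interval 0.205 to 0.828) and 0.617 (0.319 to 1.11). The span of Tm7sf2 overlaps that of 1110014N23Rik on the same strand, and how shared reads were counted is not given in the sources used here. Acat2, which joins acetyl-CoA units at the entry to the pathway, was at 67.4, 38.9 and 47.2 RPKM. Its ratios were 0.577 (0.450 to 0.733) with overexpression and 0.700 (0.551 to 0.883) with knockdown, so both lines lay below the control beyond counting error. Both ratios share the 1 control library, so they are not independent. The sterol dehydrogenase Nsdhl was at 33.3, 23.3 and 32.6 RPKM, a ratio of 0.701 (0.561 to 0.869) with overexpression and 0.980 (0.800 to 1.20) with knockdown. The isomerases Ebp and Idi1 were at 0.750 (0.596 to 0.937) and 0.775 (0.674 to 0.888) of the control with overexpression. Cyp51, the lanosterol demethylase, was at 0.850 (0.731 to 0.986). The 2 sterol genes above the control were those on either side of squalene. Fdft1, which makes squalene, was at 23.8 RPKM in control cells and 29.9 with overexpression (1.26, 1.04 to 1.51), and Sqle, the epoxidase that acts on it, was at 40.3 and 46.5 RPKM (1.15, 0.994 to 1.34). The span of Fdft1 overlaps that of Ctsb on the other strand, and the strand setting of the counting is not given in the sources used here. Sc5d and Dhcr7, the last enzymes of the branch, are described separately. The remaining genes, Mvk, Pmvk, Mvd, Fdps, Lss, Sc4mol and Hsd17b7, had ratios of 0.749 to 0.965, with intervals that included 1.

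With Linc-RAM knockdown, the early sterol enzymes lay below the control and the later ones lay on both sides of it. Over the 17 measured, 13 were below the control and 4 above, and the median log2 ratio was -0.15, against -0.014 over all genes compared, of which 51.6% were below and 48.4% above. No member was at least 2-fold from the control, where 4.19% of all genes were lower and 3.38% higher by 2-fold or more. At 1.5-fold, 6 members were lower (Dhcr7, Tm7sf2, Pmvk, Fdps, Stard4 and Scd1) and Sc5d was higher, against 12.1% and 10.5% of all genes. All 7 measured enzymes up to squalene were below the control (median log2 ratio -0.51), and of the 10 from squalene on, 6 were below and 4 above (median -0.055). With overexpression the medians of the same groups were -0.24 and -0.31. The division at squalene was made after the values had been seen. Over all 31 members, the counting interval lay below 1 for 12 and above 1 for 2, against 14.7% and 10.9% of all genes with a mean of at least 5 RPKM. The upper bounds of Mvd, Ebp, Acaca and Fdps were 0.995, 0.995, 0.991 and 0.980. Scaling to the median gene, a log2 shift of -0.033, would bring each of these above 1. Scaling to the upper quartile, a shift of 0.068, would bring the lower bound of Sc4mol, 1.02, below 1.

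Among the early enzymes, the kinase Pmvk was at 17.7 RPKM in control cells, 15.8 with overexpression and 10.96 with knockdown, a knockdown ratio of 0.618 (0.404 to 0.918). Fdps, the synthase of farnesyl diphosphate, was at 16.7, 15.5 and 10.4 RPKM (knockdown ratio 0.624, 0.383 to 0.980). The decarboxylase Mvd was at 15.999, 11.98 and 11.1 RPKM (0.696, 0.477 to 0.995). In these 3 genes the knockdown library was the lowest. It was not the lowest for Acat2 or Idi1, where overexpression was, and the knockdown ratios of Idi1 and Fdft1 were close to 1, at 0.932 (0.814 to 1.06) and 0.963 (0.777 to 1.19). Mvk, the first kinase of mevalonate, was at 11.5, 9.73 and 9.63 RPKM, with intervals of both ratios that included 1. Sc4mol, which oxidizes the methyl groups of sterol intermediates, was highest with knockdown, at 45.4, 42.7 and 55.2 RPKM (knockdown ratio 1.21, 1.02 to 1.45). The span of Fdps overlaps that of U6 on the same strand, and the span of Mvd overlaps that of Gm20388 on the other strand. How such reads were counted is not given in the sources used here.

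**Figure D2:**
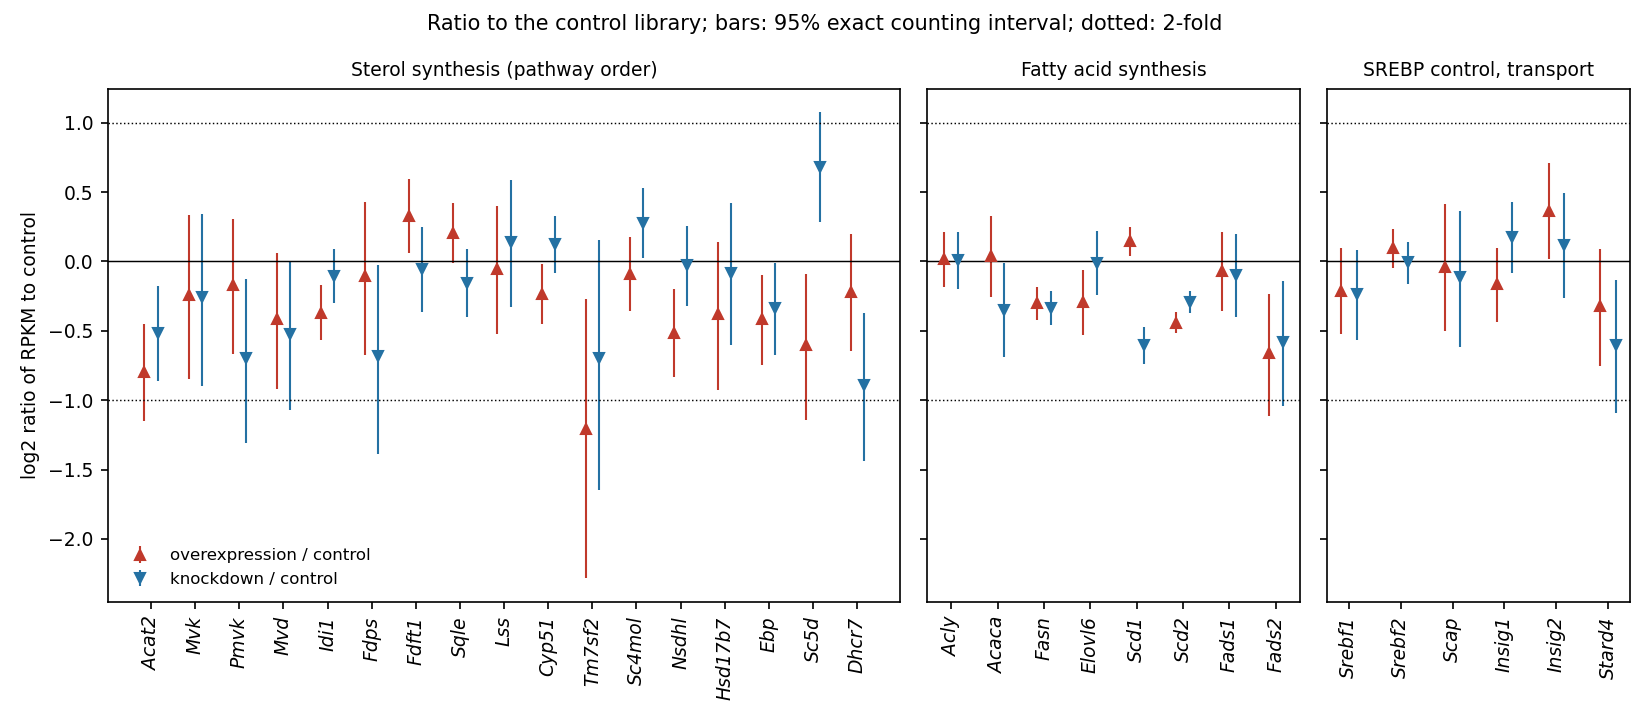
Log2 RPKM ratio to the control library for overexpression (red) and knockdown (blue), with 95% exact counting intervals as bars, a solid line at the control and dotted lines at 2-fold. Both comparisons share the control library. In the sterol panel 15 of 17 red points and 13 of 17 blue points lie below 0, and Tm7sf2 with overexpression, at -1.21, is the only point past a dotted line.

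The desaturase and the reductase of the last steps of cholesterol synthesis had opposite orders in the overexpression and knockdown libraries. Sc5d (chromosome 9 of mm9, 42062260 to 42072383), the desaturase that acts just before Dhcr7, was at 12.8 RPKM in control cells, 8.45 with overexpression and 20.6 with knockdown. Its ratios to the control were 0.659 (0.452 to 0.939) and 1.61 (1.22 to 2.11), and the overexpression library stood at 0.410 (0.275 to 0.603) of the knockdown library. Dhcr7 (chromosome 7, 151009050 to 151034315), the reductase that yields cholesterol, was at 12.9, 11.1 and 6.996 RPKM, with ratios of 0.860 (0.639 to 1.14) and 0.540 (0.369 to 0.772). Its direct ratio of overexpression to knockdown was 1.59 (1.05 to 2.45). Sc5d was thus highest with knockdown and lowest with overexpression, and Dhcr7 was lowest with knockdown.

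Promoter windows are shown for every member that was at least 1.5-fold from the control in either line and has one. These are Sc5d, Dhcr7, Tm7sf2, Pmvk, Acat2 and Fads2. The window of Hmgcs1 is shown because, among the members, it alone held the string TCACNCCAC that was searched for. SREBP acts at promoters of sterol genes together with the factor NF-Y, which binds CCAAT. The RefSeq promoter table (build GRCm38.p6, 250 bases before to 50 after a start site) had 32 windows for 24 of the 32 members. Fdps, Fdft1, Sqle, Sc4mol, Scd1, Scd2, Fads1 and Stard4 had no entry used here. Searched on both strands, CCAAT was in 13 of 17 windows of sterol synthesis genes and in 2 of 5 of fatty acid synthesis genes, against 37.4% of all 32851 windows. The core of a sterol regulatory element, TCACNCCAC, was in 1.24% of all windows and in that of 1 member, Hmgcs1. Sterol elements with other letters were not searched for, so windows without this string may still hold one. The E-box CAGCTG, a form that MyoD binds, was in 16.3% of all windows and in 3 windows of members, 1 each of Dhcr7, Idi1 and Insig2. A match is a description of letters in this window, not of binding. In these sequences, written 5′ to 3′ on the strand of the gene, capitals mark CCAAT on either strand and, in Hmgcs1, also the match to TCACNCCAC. Of 3 windows for Dhcr7 and 2 for Pmvk the one with CCAAT is shown, and the windows of Acat2 and Fads2 hold neither motif.
Sc5d, chr9:42264251-42264550, reverse strand: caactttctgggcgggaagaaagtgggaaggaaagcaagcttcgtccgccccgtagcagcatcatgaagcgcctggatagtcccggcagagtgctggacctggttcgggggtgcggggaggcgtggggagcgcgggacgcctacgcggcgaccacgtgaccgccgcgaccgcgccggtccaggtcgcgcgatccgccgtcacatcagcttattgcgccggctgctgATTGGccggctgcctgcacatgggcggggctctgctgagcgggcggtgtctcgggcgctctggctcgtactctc
Dhcr7, chr7:143829964-143830263, forward strand: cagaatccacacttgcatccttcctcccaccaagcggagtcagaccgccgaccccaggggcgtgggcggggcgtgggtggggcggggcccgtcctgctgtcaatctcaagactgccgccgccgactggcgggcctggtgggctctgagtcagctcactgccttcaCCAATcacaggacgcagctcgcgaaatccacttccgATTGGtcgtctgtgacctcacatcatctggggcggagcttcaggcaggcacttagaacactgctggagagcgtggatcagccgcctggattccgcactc
Tm7sf2, chr19:6067801-6068100, reverse strand: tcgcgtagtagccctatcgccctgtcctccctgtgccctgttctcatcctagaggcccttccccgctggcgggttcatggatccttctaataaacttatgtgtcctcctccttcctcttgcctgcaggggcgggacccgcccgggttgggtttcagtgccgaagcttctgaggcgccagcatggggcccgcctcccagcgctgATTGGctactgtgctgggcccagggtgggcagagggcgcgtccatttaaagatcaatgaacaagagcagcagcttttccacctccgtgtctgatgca
Pmvk, chr3:89454291-89454590, forward strand: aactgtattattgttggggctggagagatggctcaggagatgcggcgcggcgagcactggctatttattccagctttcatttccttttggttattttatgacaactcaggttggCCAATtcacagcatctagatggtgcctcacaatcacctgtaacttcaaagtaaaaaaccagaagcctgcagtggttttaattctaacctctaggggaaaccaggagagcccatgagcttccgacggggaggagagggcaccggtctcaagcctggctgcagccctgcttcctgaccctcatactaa
Acat2, chr17:12960676-12960975, reverse strand: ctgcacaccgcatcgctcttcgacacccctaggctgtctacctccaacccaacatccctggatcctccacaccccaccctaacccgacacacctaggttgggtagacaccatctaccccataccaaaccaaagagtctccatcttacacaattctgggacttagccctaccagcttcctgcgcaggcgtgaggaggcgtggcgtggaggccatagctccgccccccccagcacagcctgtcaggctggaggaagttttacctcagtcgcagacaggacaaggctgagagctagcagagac
Fads2, chr19:10101454-10101753, reverse strand: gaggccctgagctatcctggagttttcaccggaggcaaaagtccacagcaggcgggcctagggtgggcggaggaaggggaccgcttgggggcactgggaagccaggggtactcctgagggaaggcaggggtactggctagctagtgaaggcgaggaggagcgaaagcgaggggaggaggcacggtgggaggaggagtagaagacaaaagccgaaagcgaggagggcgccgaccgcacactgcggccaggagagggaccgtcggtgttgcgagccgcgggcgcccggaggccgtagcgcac
Hmgcs1, chr13:119690101-119690400, forward strand: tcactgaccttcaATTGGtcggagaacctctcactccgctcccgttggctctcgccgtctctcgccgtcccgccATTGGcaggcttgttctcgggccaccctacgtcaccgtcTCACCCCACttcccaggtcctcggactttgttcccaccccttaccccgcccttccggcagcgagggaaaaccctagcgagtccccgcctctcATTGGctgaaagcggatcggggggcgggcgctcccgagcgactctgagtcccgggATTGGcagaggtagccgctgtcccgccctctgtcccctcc

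The summed level of the fatty acid branch was below the control in both lines. The 8 genes summed to 637 RPKM in control cells, 526 with overexpression and 514 with knockdown, and Scd2 alone made up 57.9%, 51.7% and 58.6% of these sums. Without Scd2 the branch summed to 268, 254 and 213 RPKM. With overexpression, 5 of the 8 were below the control and 3 above (median log2 ratio -0.18). With knockdown, 7 were below and 1 above (median -0.31). Over all genes compared, 49.6% were below the control with overexpression (median 0.0048) and 51.6% with knockdown (median -0.014). Scaled to the median gene or the upper quartile, 5 and 7 of the 8 were below with overexpression, against 49.4% and 59.4% of all genes. With knockdown these scalings gave 6 and 8, against 48.2% and 57.3%. Fasn, the fatty acid synthase, was at 46.0, 37.3 and 36.4 RPKM, giving ratios of 0.812 (0.747 to 0.880) and 0.792 (0.726 to 0.863). Fads2, which desaturates polyunsaturated fatty acids, was at 27.9, 17.6 and 18.7 RPKM, giving ratios of 0.632 (0.462 to 0.851) and 0.670 (0.487 to 0.909). In both genes the 2 lines lay together below the 1 control library that both ratios share. Fads1, the other desaturase of this pathway, was at 41.8, 39.8 and 39.1 RPKM, with intervals of 0.781 to 1.16 and 0.758 to 1.15. Acly, which supplies cytosolic acetyl-CoA, was at 31.3, 31.6 and 31.5 RPKM, and both ratios were 1.01 (0.880 to 1.16 and 0.870 to 1.16). Acaca, which makes malonyl-CoA, was at 7.12, 7.31 and 5.60 RPKM, giving ratios of 1.03 (0.836 to 1.26) and 0.786 (0.619 to 0.991). The elongase Elovl6 was at 19.4, 15.8 and 19.2 RPKM, giving ratios of 0.816 (0.691 to 0.960) and 0.994 (0.846 to 1.16).

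Scd1 and Scd2 lie near each other on chromosome 19 of mm9 (44468941 to 44482199 and 44368166 to 44381354) and had different orders across the libraries. Scd1 was at 94.7 RPKM in control cells, 105 with overexpression and 62.4 with knockdown, ratios of 1.11 (1.03 to 1.19) and 0.659 (0.600 to 0.722). Scd2 was at 369, 272 and 301 RPKM, giving ratios of 0.737 (0.698 to 0.778) and 0.817 (0.773 to 0.862). Scd1 was therefore highest with overexpression, where Scd2 was lowest. Scd1 made up 20.4% of the summed RPKM of the pair in control cells, 27.8% with overexpression and 17.2% with knockdown. The genes are similar in sequence, and how reads that match both were counted is not given in the sources used here. The span of Scd2 also overlaps that of AC123853.2 on the same strand, so the same limit holds for reads shared with it.

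**Figure D3:**
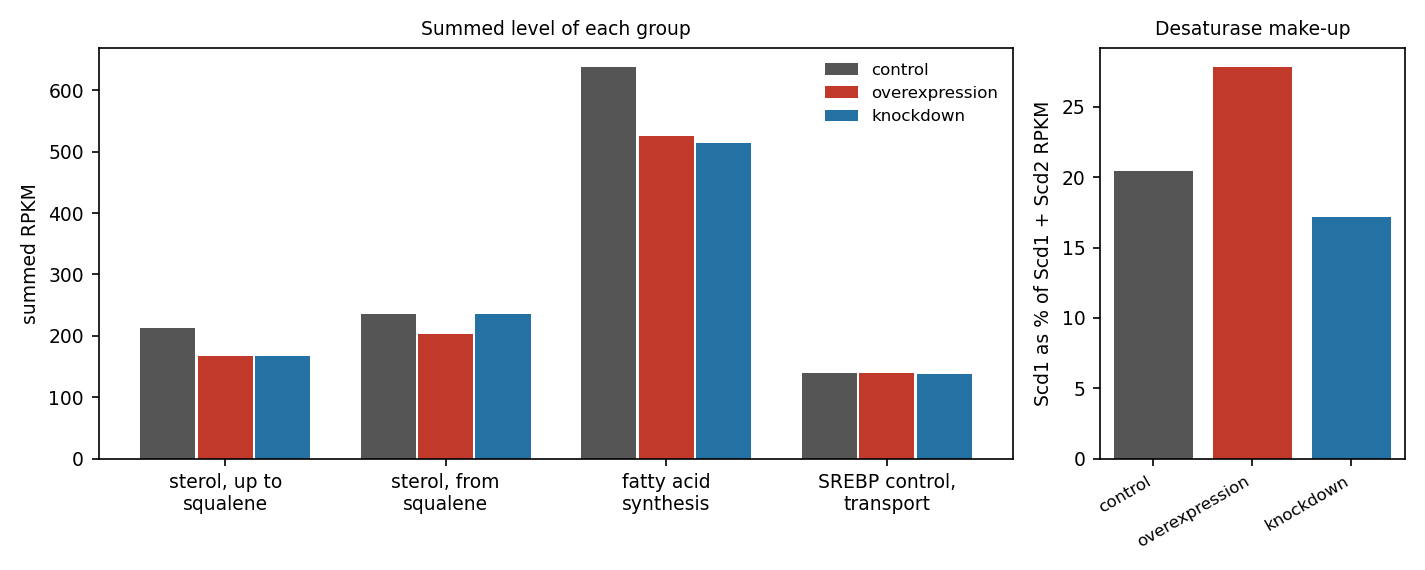
Left, summed RPKM of each group of genes in the control (grey), overexpression (red) and knockdown (blue) libraries. Right, Scd1 as a percentage of the summed RPKM of Scd1 and Scd2. Bars start at 0 and stand for 1 library each. The fatty acid bars stand at 637, 526 and 514 RPKM, the SREBP group is level at 138 to 140.3 RPKM, and the Scd1 share runs from 17.2% to 27.8%.

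The genes of the SREBP system and of sterol transport had close summed levels in the 3 libraries. The sum was 140.1 RPKM in control cells, 140.3 with overexpression and 138 with knockdown, and the median log2 ratios were -0.10 and -0.061. Srebf2, the factor tied most closely to sterol genes, was at 57.0, 60.9 and 56.7 RPKM, giving ratios of 1.07 (0.968 to 1.18) and 0.995 (0.895 to 1.10). Srebf1, the factor tied to fatty acid genes, was at 15.5, 13.4 and 13.1 RPKM, giving ratios of 0.865 (0.697 to 1.07) and 0.849 (0.676 to 1.06). Scap was at 6.59, 6.43 and 6.09 RPKM, giving ratios of 0.975 (0.706 to 1.33) and 0.923 (0.654 to 1.28). For these 3 genes differences within the intervals were not detectable at this depth. Insig1, itself a target of SREBP, was at 32.4, 28.9 and 36.6 RPKM, and the overexpression library stood at 0.789 (0.634 to 0.981) of the knockdown library. Insig2 was at 15.9, 20.5 and 17.3 RPKM, giving ratios of 1.29 (1.01 to 1.63) and 1.09 (0.831 to 1.41). Stard4, a sterol carrier protein, was at 12.7, 10.2 and 8.38 RPKM, giving ratios of 0.800 (0.593 to 1.07) and 0.658 (0.468 to 0.909).

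The direct ratio of overexpression to knockdown does not use the control library. The sterol genes had a median log2 ratio of -0.19, with 10 of 17 lower with overexpression, and the fatty acid genes had one of 0.016, with 3 of 8 lower, against 0.025 over all 10146 genes compared, of which 47.9% were lower and 52.1% higher. Only Sc5d was 2-fold lower and none was 2-fold higher, where 5.11% and 5.83% of all genes were. At 1.5-fold Sc5d was lower and Scd1 and Dhcr7 were higher, against 12.6% and 14.3% of all genes. Without the abundant Scd1, Scd2, Acat2 and Idi1 the sterol median was -0.079. The sterol medians minus the fatty acid medians were -0.061 with overexpression, 0.16 with knockdown and -0.21 in the direct ratio, with counting bands from the intervals of the middle genes of -0.71 to 0.59, -0.10 to 0.43 and -0.84 to 0.42. Each band includes 0. The bands rest on the middle genes alone and are not intervals of the medians, so no order of the branches is read from them. Without Scd1, Scd2, Acat2 and Idi1 the last of these was -0.095 and that with knockdown 0.063. These differences of medians have no test, as each condition is 1 library. From squalene on, 8 of 10 sterol genes were lower with overexpression than with knockdown (median -0.33), and up to squalene 2 of 7 were (median 0.10). The counting interval of the direct ratio lay below 1 for Idi1, Cyp51, Sc4mol, Nsdhl, Sc5d, Scd2 and Insig1 and above 1 for Fdft1, Sqle, Dhcr7 and Scd1. These were 7 and 4 of the 31 members, against 9.94% and 12.9% of all genes with a mean of at least 5 RPKM. Scd1 was 1.68-fold higher with overexpression (1.51 to 1.86), and Sqle 1.28-fold (1.06 to 1.55).

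**Figure D4:**
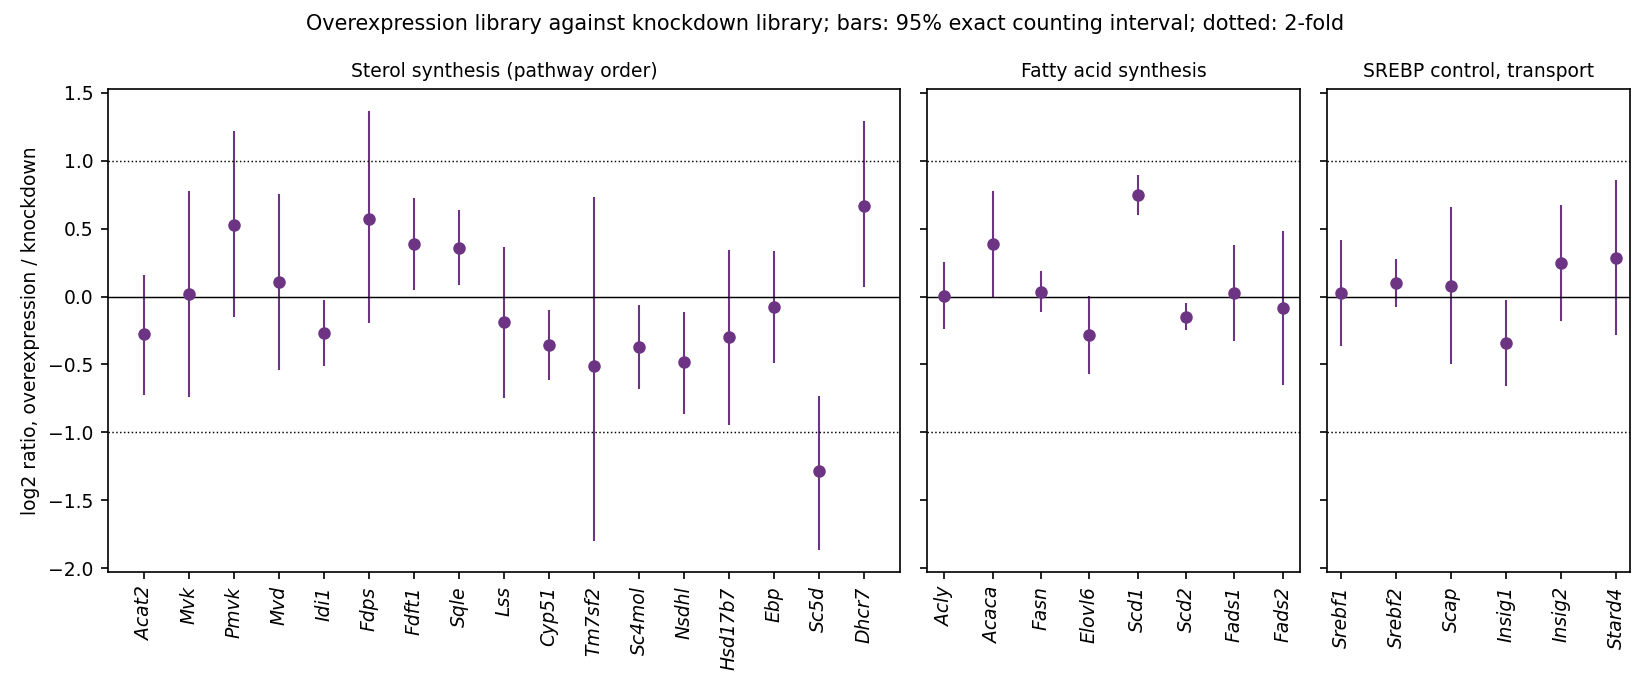
Log2 of the overexpression library over the knockdown library for the 31 measured members, with 95% exact counting intervals as bars, a solid line at equal levels and dotted lines at 2-fold. Sc5d, at -1.29, is the only point past a dotted line, and Scd1, at 0.75, is the highest.

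Other genes of the same pathways were counted at 2-fold beside the shares over all genes, 3.64% higher and 3.47% lower with overexpression and 3.38% higher and 4.19% lower with knockdown. Of 15 measured genes of protein prenylation, dolichol and ubiquinone synthesis, none was 2-fold from the control, and the medians were 0.10 and -0.12. Dolk, the dolichol kinase, was at 0.554 (0.323 to 0.908) of the control with overexpression, and Fntb, a farnesyltransferase subunit, at 0.638 (0.405 to 0.974). Other genes of this list went the other way. Named after their values were seen, these were Nus1, at 1.55 (1.21 to 1.98) with overexpression, and Zmpste24, at 1.48 (1.17 to 1.85) with knockdown. Among 11 genes of SREBP cleavage and sterol-regulated protein degradation, none was 2-fold from the control (medians -0.18 and -0.10). The ubiquitin ligase Syvn1 was at 0.666 (0.459 to 0.946) with knockdown, and the ratios of Erlin1 were 0.696 (0.455 to 1.04) and 0.756 (0.491 to 1.13). Named after their values were seen, Mbtps2 was at 1.57 (1.07 to 2.28) with overexpression and Rnf139 at 1.36 (1.08 to 1.70) with knockdown. In each line the interval lay above 1 for 1 of the 11 genes and below 1 for 1. Among 16 measured genes of sterol uptake, esterification, trafficking and efflux, 1 was 2-fold higher with overexpression, on at most 5 reads in a library, and none was 2-fold from the control with knockdown (medians 0.14 and -0.06). The next 2 genes were under the filter and are named after their values were seen. Vldlr, a lipoprotein receptor gene at a mean of 0.900 RPKM, had 45, 3 and 23 reads. It was at 0.162 (0.0323 to 0.506) of the control with overexpression and 1.396 (0.806 to 2.36) with knockdown. Abcg1, with 9, 4 and 11 reads, was at 1.08 (0.244 to 3.88) and 3.34 (1.26 to 9.12). Npc2, which carries cholesterol out of lysosomes, was at 97.0, 112 and 57.6 RPKM, giving ratios of 1.15 (1.05 to 1.25) and 0.594 (0.528 to 0.667). Osbpl9, an oxysterol-binding protein relative, was at 1.54 (1.17 to 2.01) of the control with overexpression. Of 19 measured genes of fatty acid supply, elongation and activation, none was 2-fold from the control with overexpression, and with knockdown 2 were 2-fold higher and 1 lower (medians -0.03 and -0.19). The higher genes, named here after their values were seen, were the elongase Elovl4 (18, 8 and 15 reads, knockdown ratio 2.28, 1.07 to 4.78) and the dehydratase Ptplb (15, 7 and 13 reads, 2.37, 1.04 to 5.33). The lower gene was Fads3, a relative of Fads1 and Fads2, at 25.5, 22.7 and 12.5 RPKM (knockdown ratio 0.491, 0.380 to 0.628). Mid1ip1, a cofactor of acetyl-CoA carboxylase, was at 29.1, 28.4 and 17.3 RPKM (0.596, 0.451 to 0.779).

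Some markers of cell identity also differed between the libraries. All 9 myoblast markers were above the control with overexpression, and with knockdown 5 were below and 4 above. Over all genes compared, 50.4% were above with overexpression and 51.6% below with knockdown, so the knockdown split was near that of all genes. Myog, the transcription factor of early differentiation, was 5.60-fold above the control with overexpression (3.60 to 8.91), and the integrin gene Itga7 was 3.32-fold (2.89 to 3.83). The 8 fibroblast and tenocyte markers summed to 112, 75.2 and 107 RPKM, with Thy1, Lum and Tnmd listed at 0 in all 3 libraries, Col1a1 at 0.410 (0.363 to 0.462) of the control with overexpression and Scx at 1.21 (0.923 to 1.58). Col1a1 and Scx made up most of that sum. Of the other measured markers of this list, Dcn was 3.86-fold above the control with overexpression (1.78 to 8.72), on 12, 19 and 3 reads, and Pdgfra was 1.94-fold above it with knockdown (1.44 to 2.59). Of 5 osteoblast markers only Runx2 was measured, at 6.41, 4.66 and 10.5 RPKM, and Alpl and Ibsp were listed at 0 in all 3 libraries. The 5 macrophage markers summed to 1.17, 0.594 and 2.00 RPKM, with Ptprc, Emr1 and Itgam listed at 0 in all 3. The part of these markers in the ratios of the lipid genes was not tested.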

How the data were processed

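RNA-Seq of 3 stable C2C12 lines, 1 library each, was analysed, with groups taken from the labels. The authors aligned the reads to mm9 by TopHat (1.4.1 in the submitters' processing notes) and used DEGSeq for expression, and the deposited tables hold RPKM. Their annotation, their counting of multiply mapped reads and their RPKM denominator were not given in the sources used here.

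RPKM ratios were computed without a pseudocount for the 10172 genes that averaged 1 RPKM or more, and the 2-fold criterion is that of the study's methods. A single library per condition allows neither a test nor an SD. The read total of a library was the smallest one that made low genes whole at GENCODE transcript lengths. Of the 1500 genes used, 48.1%, 52.5% and 50.2% then came out whole. The length of a gene was an annotated one that gave whole reads in every library (tolerance 1e-05 of the count), or failing that the shortest from 200 nt. Of the members, 3 had whole reads at an annotated length, and the other measured members were given the shortest length. Such reads are a lower estimate, which widens the intervals. Duplicates counted as separate reads would narrow them, so the net error of their width is not known. Intervals cover counting error only, since PCR duplicates cannot be told apart. The steps were tested on simulated data. Positions are from GENCODE on mm9. Promoters are from RefSeq on GRCm38.p6 and were not placed on mm9.

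Members, lists and comparisons were chosen with earlier results of these data known. Every member is named. From each other list, up to 2 genes averaging at least 5 RPKM with the largest ratio to the control are named. Some genes and the list of further sterol steps are not reported here. Alternatives were other filters and scalings, added constants, 1.5-fold, the counting interval, and omission of related or overlapping genes. Tools were matplotlib 3.10.9, Python 3.11.15, pandas 2.3.3, numpy 2.4.6 and scipy 1.17.1.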

Additional observations from a re-analysis of the deposited data

How the results depend on the processing

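The largest shift of scaling was 0.096 on the log2 scale, at the upper quartile with overexpression. Counts of intervals that exclude 1 were not recomputed under the scalings, and bounds near 1 would cross it. Of 138 values recomputed under the alternatives, 5 were counts that left the range of 1.5 times the reported one. The rest is no sign of stability. Filters could not change the members, which all average at least 5 RPKM, and a scaling cannot change a difference between branches. The counting bands given for the medians are wide and rest on the middle genes alone. Within those bands the branch difference with knockdown, 0.16, was 0.063 without Scd1, Scd2, Acat2 and Idi1 and 0.089 without members that overlap another gene, and with overexpression, -0.061, it was -0.12 without the latter. At 1.5-fold in place of 2-fold, 4 members were lower with overexpression (1 at 2-fold), 6 were lower with knockdown and 1 was higher (none at 2-fold), and 2 were higher in the direct ratio of overexpression to knockdown (none at 2-fold). When the 10 members whose span overlaps another annotated gene were left out, an alternative chosen after seeing the data, 0 members were 2-fold lower with overexpression, since Tm7sf2 is among the 10. The median log2 direct ratio of the fatty acid genes, 0.016, turned to -0.016 when libraries were scaled to the median gene and to -0.012 when scaled to the upper quartile, so its sign depends on the scaling. These scalings, applied to counts of direction after seeing the data, gave 24 and 27 of 31 members below the control with overexpression (24 as deposited, against 49.4%, 59.4% and 49.6% of all genes), and 21 and 25 with knockdown (24 as deposited, against 48.2%, 57.3% and 51.6%). In the direct ratio they gave 18 and 18 (14 as deposited, against 50.7%, 50.6% and 47.9% of all genes). The side that held the majority of members thus depends on the scaling. No paired analysis was possible because each condition is 1 library, and no library could be left out. The overexpression and knockdown libraries had 41.0% and 36.6% as many reads as the control library, which limits the ratios of low genes such as Tm7sf2, with 11 reads.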

Other observations

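Most measured genes of the fatty acid oxidation list were above the control with knockdown, few of them beyond counting error. Of 16 measured genes of fatty acid oxidation, 11 were above the control with knockdown and 5 below (median log2 ratio 0.18), and 9 were above with overexpression (median 0.04). Over all genes compared, 48.4% were above the control with knockdown and 50.4% with overexpression. With knockdown the counting interval lay above 1 for 2 of the 16, Acadm and Cpt1a, and below 1 for 0. Over all genes with a mean of at least 1 RPKM these shares were 8.99% and 10.4%. Acadm, the dehydrogenase of medium-chain fatty acids, was at 16.2 RPKM in control cells, 19.8 with overexpression and 32.6 with knockdown, ratios of 1.23 (95% counting interval 0.920 to 1.62) and 2.02 (1.57 to 2.59). It was the only gene of this list that was 2-fold from the control in either comparison. Acadvl, the dehydrogenase of very long chains, was at 4.79, 7.48 and 7.16 RPKM, giving ratios of 1.56 (0.985 to 2.45) and 1.49 (0.916 to 2.39). Cpt1a, named after its values were seen, was at 16.9, 14.1 and 21.8 RPKM. Its ratios were 0.834 (0.677 to 1.02) and 1.29 (1.07 to 1.54). The list summed to 170.4 RPKM in control cells, 171 with overexpression and 199.7 with knockdown. Acadm made up most of the rise of this sum with knockdown.

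Of 18 measured genes of glycerolipid synthesis and lipid droplets, 1 was 2-fold lower with overexpression and 1 was 2-fold higher with knockdown (medians 0.0043 and -0.097), where 3.47% and 3.38% of all genes were. Named after their values were seen, these were the acyltransferase Agpat2, with 18, 1 and 7 reads and a ratio of 0.135 (0.0032 to 0.857) with overexpression, and the lipase Lipe, with 25, 15 and 23 reads and a ratio of 2.51 (1.36 to 4.61) with knockdown. Pnpla2, the first lipase of stored triglyceride, was at 6.89, 3.67 and 5.68 RPKM, giving ratios of 0.533 (0.316 to 0.861) and 0.825 (0.525 to 1.26). Agpat4, an acyltransferase, was at 6.12, 9.20 and 7.53 RPKM, giving ratios of 1.503 (0.970 to 2.30) and 1.23 (0.750 to 1.97).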
